A study of Mus musculus with 6 samples.

Results

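The cochlea of mice sampled 24 h after noise and a saline injection was compared with the cochlea of mice at baseline, gene by gene, on a pair of expression arrays. The pair made up 2 of the 6 arrays of the study, the ones labelled as saline at 24 h and as baseline, and both lay on the same slide. Of 37317 genes on the array design, 22965 were well above background on both arrays, and these are called measured. The saline 24 h array carried cochlear RNA of female C57BL/6 mice aged 6 weeks that were exposed to intense noise for 2 h, were injected intraperitoneally with saline right after it and were sampled at 24 h. The baseline array carried cochlear RNA of female C57BL/6 mice aged 6 weeks that received neither noise nor dexamethasone, and the sources used here do not say whether they were injected. The other 4 arrays are used only for levels set beside a result. They carried cochlear RNA of female C57BL/6 mice aged 6 weeks after 2 h of noise alone with no labelled time, of mice sampled 12 h after noise and saline, and of mice sampled 12 h and 24 h after noise and dexamethasone, a synthetic glucocorticoid given at 10 mg/kg. Both 12 h arrays lay on another slide, and the remaining arrays lay on the slide of the pair. For the 12 h levels, time and slide therefore cannot be told apart. Each group had 6 mice by the study design, and the sources used here do not say whether RNA was pooled.

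With 1 array in each group, no difference below has a replicate check and none has a p-value. The interval after a fold covers the error of the spot signal only. A level is the log2 processed intensity of a gene's probe minus the 75th percentile of that array, a difference is the saline 24 h level minus the baseline level, and levels are not compared between genes, whose probes differ in brightness. The RNA came from whole dissected tissue, so fewer cells of a type and less RNA per cell cannot be told apart.

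Most genes lay close together on the pair of arrays, with 89.8% of measured genes within 1.5-fold and a median difference of 0.01. The saline 24 h array was higher by 2-fold or more in 396 genes, which is 1.72% of those measured, and lower by as much in 394, also 1.72%. Together 3.44% of measured genes were 2-fold or more apart in either direction, and 51.3% lay above baseline by any amount. These percentages are the background against which the counts of each gene group are given. Scaling on the spike-in probes instead of the 75th percentile moved the median of all measured genes to −0.24 and the split to 242 higher and 754 lower, so every difference below is relative to the bulk of genes. The share 2-fold or more apart was 6.51% among the 5742 dimmest genes and 1.25% among the 5741 brightest. The saline 24 h array had 63.0% of probes well above background, the lowest share of the 6 arrays. The baseline array had 67.9%, and the highest share of any array was 70.3%. Markers of the inner ear were present on both arrays, with 5 of 6 hair cell markers, 4 of 4 of the sensory epithelium, 4 of 4 of the stria vascularis, 2 of 3 of otic fibrocytes and 3 of 3 of the spiral ganglion well above background. The exceptions were Slc26a5, the motor protein of outer hair cells, and Pou3f4, a transcription factor of otic fibrocytes, neither of which was well above background on either array. Markers of cerebellum, choroid plexus, pituitary, skeletal muscle, skin, glands, marrow and bone were also well above background on both arrays, and several of them differed between the arrays, as described below.

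**Figure D1:**
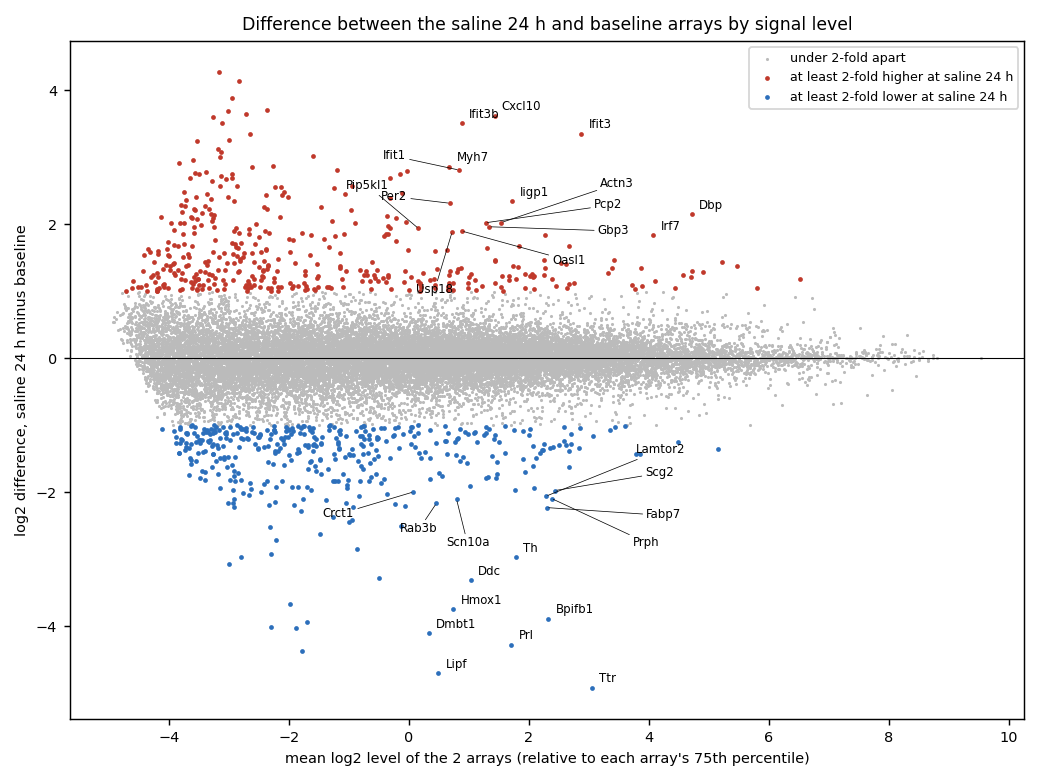
Log2 difference between the saline 24 h and baseline arrays (vertical axis) against the mean log2 level of both arrays (horizontal axis) for the 22965 measured genes, 1 point per gene. Red points are the 396 genes at least 2-fold higher at saline 24 h, blue points the 394 at least 2-fold lower, and the 15 highest and 15 lowest genes among those at or above the median level are named, from Cxcl10 at 3.62 to Ttr at −4.92.

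Cells that sense foreign or misplaced nucleic acid, or that receive interferon, switch on a common set of antiviral genes through a shared promoter element, the interferon-stimulated response element. The circadian clock of the cochlea, as of other tissues, runs as a loop in which ARNTL (BMAL1) and CLOCK bind E-box elements and drive the Per and Cry repressors, while DBP, TEF and HLF act on output genes through D-box elements. The cochlea itself turns sound into nerve signals at the hair bundles of its sensory cells, which carry an acellular gel and are bathed in potassium-rich fluid made by the stria vascularis.

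The promoters of the highest antiviral effector genes and of the highest clock genes with an entry in the promoter table are shown because the 3 elements described above were searched for in such windows. They run from 250 bases before to 50 bases after the gene start, 5′ to 3′ on the gene's strand, and come from a RefSeq table of build GRCm38.p6. Capitals mark matches on either strand to the core of the interferon-stimulated response element, which is 2 copies of GAAA with any 2 bases between them, to the E-box CACGTG, or to the D-box TTANGTAA. Ifit3b lies at chr19:34607707-34608006 on the plus strand, Ifit3 at chr19:34583279-34583578 on the plus strand and Ifit1 at chr19:34640639-34640938 on the plus strand, and each has 2 interferon elements. Dbp, at chr7:45704997-45705296 on the plus strand, has 0 matches in this window. Ciart, at chr3:95882179-95882478 on the minus strand, has 3 E-boxes, and Per3, at chr4:151044616-151044915 on the minus strand, has 2 D-boxes.
Ifit3b: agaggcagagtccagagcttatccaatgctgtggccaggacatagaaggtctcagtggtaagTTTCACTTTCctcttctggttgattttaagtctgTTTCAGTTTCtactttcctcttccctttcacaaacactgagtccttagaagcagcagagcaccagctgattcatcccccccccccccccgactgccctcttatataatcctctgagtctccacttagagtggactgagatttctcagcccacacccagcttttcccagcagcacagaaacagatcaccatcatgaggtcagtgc
Ifit3: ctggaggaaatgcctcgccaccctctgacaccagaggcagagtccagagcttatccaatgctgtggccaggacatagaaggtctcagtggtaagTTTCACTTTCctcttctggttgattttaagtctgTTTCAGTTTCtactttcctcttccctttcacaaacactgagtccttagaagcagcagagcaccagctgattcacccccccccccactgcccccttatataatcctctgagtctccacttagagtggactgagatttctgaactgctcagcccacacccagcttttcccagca
Ifit1: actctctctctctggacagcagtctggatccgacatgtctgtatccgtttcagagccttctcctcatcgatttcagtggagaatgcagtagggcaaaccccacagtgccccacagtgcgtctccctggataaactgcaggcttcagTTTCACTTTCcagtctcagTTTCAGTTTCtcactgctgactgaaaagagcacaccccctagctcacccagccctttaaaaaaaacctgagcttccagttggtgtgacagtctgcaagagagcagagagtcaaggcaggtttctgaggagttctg
Dbp: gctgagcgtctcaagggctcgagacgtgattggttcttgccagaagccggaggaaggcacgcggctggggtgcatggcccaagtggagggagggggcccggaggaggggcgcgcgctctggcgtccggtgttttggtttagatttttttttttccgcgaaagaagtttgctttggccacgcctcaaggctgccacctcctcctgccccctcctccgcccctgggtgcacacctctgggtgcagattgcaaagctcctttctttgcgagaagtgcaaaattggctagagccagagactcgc
Ciart: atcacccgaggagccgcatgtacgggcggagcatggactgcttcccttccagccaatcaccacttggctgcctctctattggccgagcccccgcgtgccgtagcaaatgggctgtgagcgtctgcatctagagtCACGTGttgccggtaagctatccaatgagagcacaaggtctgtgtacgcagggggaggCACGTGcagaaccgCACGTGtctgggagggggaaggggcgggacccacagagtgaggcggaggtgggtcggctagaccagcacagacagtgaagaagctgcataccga
Per3: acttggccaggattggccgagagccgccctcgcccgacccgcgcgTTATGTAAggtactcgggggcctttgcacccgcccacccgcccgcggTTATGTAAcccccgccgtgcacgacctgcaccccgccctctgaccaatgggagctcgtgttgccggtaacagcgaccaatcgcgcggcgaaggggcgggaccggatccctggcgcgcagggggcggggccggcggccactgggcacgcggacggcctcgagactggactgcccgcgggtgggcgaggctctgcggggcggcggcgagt

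The interferon element core was found in 48.9% of the 47 promoters in the table that belong to measured genes of 4 interferon lists described below, and in 3.76% of the 13583 promoters of all measured genes. Among all measured genes at least 2-fold higher at saline 24 h it was in 24 of 211 promoters, or 11.4%. Among those at least 2-fold lower it was in 4.37% of 229. Of the 24, 16 belong to the interferon lists themselves, so the 11.4% is not separate from the share of those lists. Within the interferon lists, the 23 genes with the element had a median difference of 1.22 and 16 of them were at least 2-fold higher, and the 24 without it had a median of 0.49 with 5 at least 2-fold higher. The E-box was in 29.2% of the 24 promoters of clock genes and in 10.6% of those of all measured genes, but in only 8.06% of the promoters of genes 2-fold or more higher and 6.11% of those 2-fold or more lower. The 7 clock genes with an E-box had a median difference of 1.05, and the 17 without had one of 0.24. The D-box was in 8.33% of the clock promoters, which is 2 of 24, in 1.96% of those of all measured genes, in 4.27% of those 2-fold or more higher and in 3.06% of those 2-fold or more lower. A match describes these letters only and is no measure of binding.

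**Figure D2:**
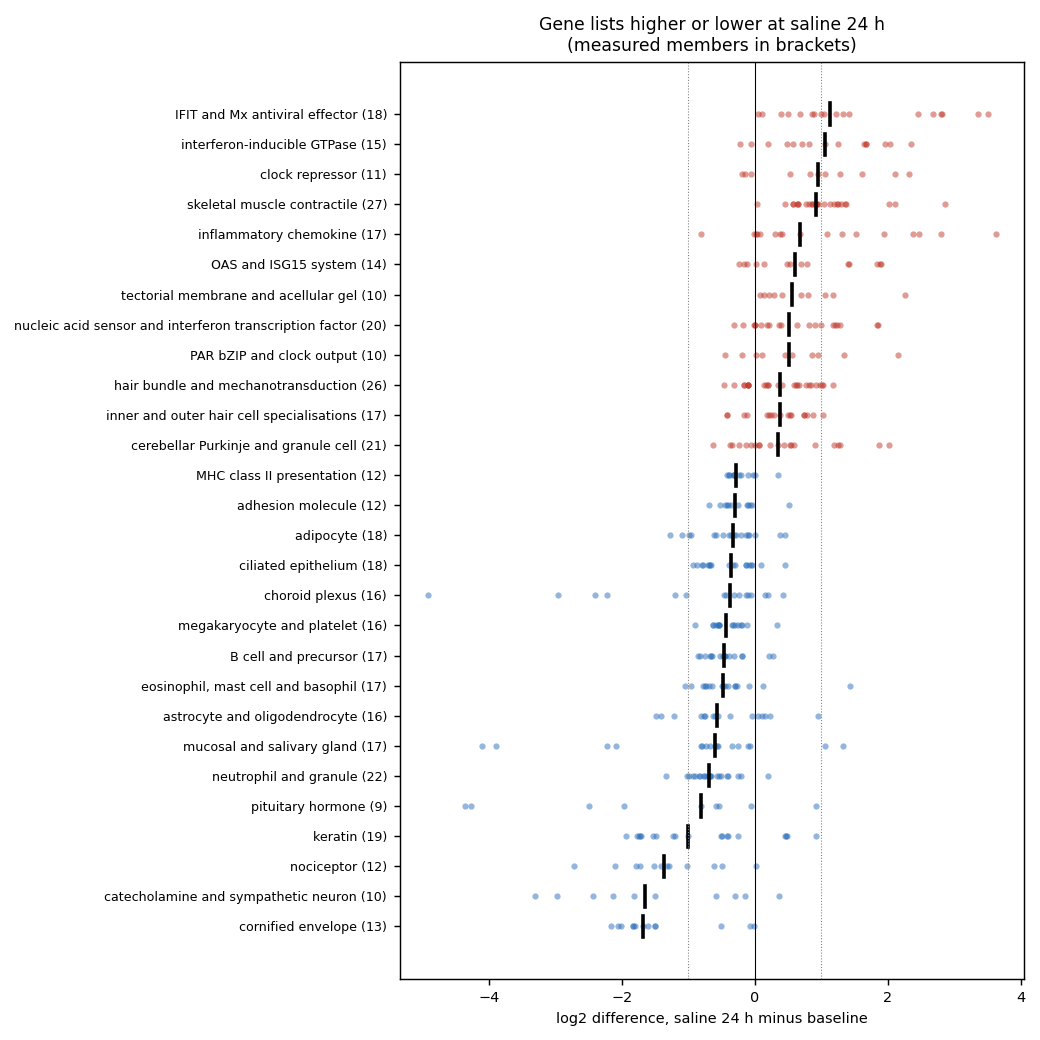
Log2 difference of each measured member (points) and the median (black bars) for the gene lists whose median lay at least 0.25 from 0, with dotted lines at 2-fold. Red marks the 12 lists higher at saline 24 h and blue the 16 lists lower, with members from −4.92 for Ttr to 3.62 for Cxcl10.

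Antiviral genes from nucleic acid sensors to effectors were higher in the saline 24 h cochlea, while the interferon receptor genes lay at baseline level. Of 20 measured nucleic acid sensors and interferon transcription factors 7 were at least 2-fold higher and 0 lower, with a median of 0.51. Zbp1, a sensor of unusual nucleic acid conformations, had a level of 0.58 in the saline 24 h array and −1.27 at baseline, a 3.61-fold difference (2.73 to 4.78). Irf7, the factor that amplifies interferon production, had a level of 4.99 at saline 24 h and 3.15 at baseline, or 3.58-fold (2.72 to 4.73), and its other measured probe differed by 1.68. The cytosolic RNA sensor genes Ifih1 and Dhx58 differed by 1.28 and 1.24, and Stat2, which transmits the interferon signal, by 1.21. The receptor genes Ifnar1 at −0.01 and Ifnar2 at 0.00, the adaptor gene Mavs at 0.09 and the constitutive factor Irf3 at 0.18 lay within 1.5-fold of baseline.

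The effector genes had the largest differences of the 4 interferon lists. The IFIT and Mx list had a median of 1.13, with all 18 measured members above baseline (2 of them below it under spike-in scaling) and 10 at least 2-fold higher. Ifit3b, which encodes an RNA-binding antiviral protein, had a level of 2.63 at saline 24 h and −0.88 at baseline, or 11.4-fold (8.62 to 15). Ifit3 had levels of 4.55 at saline 24 h and 1.20 at baseline, or 10.2-fold (7.73 to 13.5). Ifit3 and Ifit3b are near-identical copies and their probes may each bind both transcripts, so the values of one cannot be separated from the other with certainty. Mx2, a gene of the Mx GTPase family, had levels of 1.36 at saline 24 h and −1.44 at baseline, or 6.97-fold (5.27 to 9.21). The members nearest to baseline were Samhd1, which depletes nucleotides, at 0.05 and Bst2, which tethers virions, at 0.10.

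The OAS and ISG15 list, enzymes that sense double-stranded RNA or attach or remove the ubiquitin-like ISG15, had a median of 0.61 and 5 of 14 measured members at least 2-fold higher. Oasl1 had a level of 1.83 at saline 24 h and −0.06 at baseline, and Usp18, which removes ISG15, had 1.66 at saline 24 h and −0.22 at baseline, differences of 3.73-fold (2.83 to 4.92) and 3.69-fold (2.80 to 4.87). Oasl2 differed by 1.84 and Oas1g by 1.42, while Oas3 at 0.02 lay near baseline. The interferon-inducible GTPases, which attack vacuoles of intracellular pathogens, had a median of 1.05 with 8 of 15 at least 2-fold higher. Iigp1 had levels of 2.89 at saline 24 h and 0.55 at baseline, or 5.07-fold (3.84 to 6.69). Gbp6 at 4.08-fold (3.09 to 5.39), Gbp3 at 3.90-fold (2.96 to 5.15) and Tgtp2 at 3.20-fold (2.42 to 4.22) followed. Oas1f, Oas1g and Oas1a stood side by side on chr5:121307929-121346794 (mm9) and Ifit2, Ifit3 and Ifit3b on chr19:34650244-34687581 (mm9), and in each run all 3 measured neighbours were at least 2-fold higher. Oas1 copies are also alike in sequence, and cross-binding of their probes was not tested.

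Across the 6 arrays, baseline had the lowest level of Ifit3b, Ifit3, Ifit1, Mx2, Oasl1, Usp18, Irf7, Iigp1 and Gbp3. Ifit3 had 4.50 in noise alone, 3.14 in saline at 12 h, 2.54 in dexamethasone at 12 h and 3.17 in dexamethasone at 24 h, so saline at 24 h and noise alone were the highest arrays. Irf7 had 4.78 in noise alone, 4.50 in saline at 12 h, 3.20 in dexamethasone at 12 h and 3.84 in dexamethasone at 24 h, so the same arrays stood at the top and baseline again at the bottom. Macrophage and monocyte genes had a median difference of −0.01 over 18 measured members, which lay between −1.53 and 1.32. T and NK cell genes had a median of −0.16 over 16. The part of cell numbers in the antiviral differences was not tested.

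Inflammatory chemokines were higher as a group, with a median of 0.67 and 8 of 17 measured members at least 2-fold higher, and homeostatic chemokines lay near baseline at −0.16 over 7. Cxcl10, which draws T cells through CXCR3, had a level of 3.24 at saline 24 h and −0.38 at baseline, or 12.3-fold (9.33 to 16.3), and its probe lies at chr5:92775781-92775840 (mm9). Ccl7, a monocyte attractant, had 0.21 at saline 24 h and −2.60 at baseline, or 7.0-fold (5.25 to 9.33). Ccl2, the main ligand of CCR2, had 1.12 at saline 24 h and −1.35 at baseline, or 5.54-fold (4.19 to 7.32). The other ligands of CXCR3, Cxcl9 at 0.38 and Cxcl11 at 0.07, were within 1.5-fold of baseline, and the neutrophil attractant Cxcl5 was lower at −0.81. The chemokines differed among themselves across the arrays. Cxcl10 had 3.83 in noise alone, 2.13 in saline at 12 h, 1.92 in dexamethasone at 12 h and 2.05 in dexamethasone at 24 h, so noise alone and saline at 24 h were highest, as for Ifit3. Ccl2 had 1.81 in noise alone, 2.22 in saline at 12 h, 2.33 in dexamethasone at 12 h and 2.69 in dexamethasone at 24 h, all above its saline 24 h level, and Ccl7 likewise had 0.39 to 1.60 on those 4 arrays. Ccl12, another ligand of CCR2, had 0.88 at saline 24 h and −1.50 at baseline, with −0.34 to 1.05 on the other arrays. Ccl8 was highest at saline 24 h, at 0.67, against −1.28 at baseline and −1.13 to 0.06 on the other arrays. The median of the inflammatory chemokines at or above the median level of all genes was 0.19.

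Signals around this response were smaller. Interleukin 6 family genes had a median of 0.19, with Il11 at 1.04, Osmr, the oncostatin M receptor, at 0.68 and Il6 itself not well above background on either array. The list of NF-kB subunits and feedback inhibitors, which also holds the cytokine gene Il1b, lay near baseline at 0.01. Relb stood at 0.47 and Il1b at −0.56, and 0 of 14 members were 2-fold apart. Of the Toll-like receptors only Tlr3, the sensor of double-stranded RNA, was at least 2-fold higher, at 1.46, with its other probe at 0.84, among 18 measured receptors and adaptors. Of the complement genes Cfb, factor B of the alternative pathway, stood at 1.12 and C4b at 0.68, while the list had a median of 0.12 over 17. MHC class I genes had a median of 0.23 with 0 of 17 at least 2-fold apart, led by their activator Nlrc5 at 0.77 and the peptide transporter Tap1 at 0.76.

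**Figure D3:**
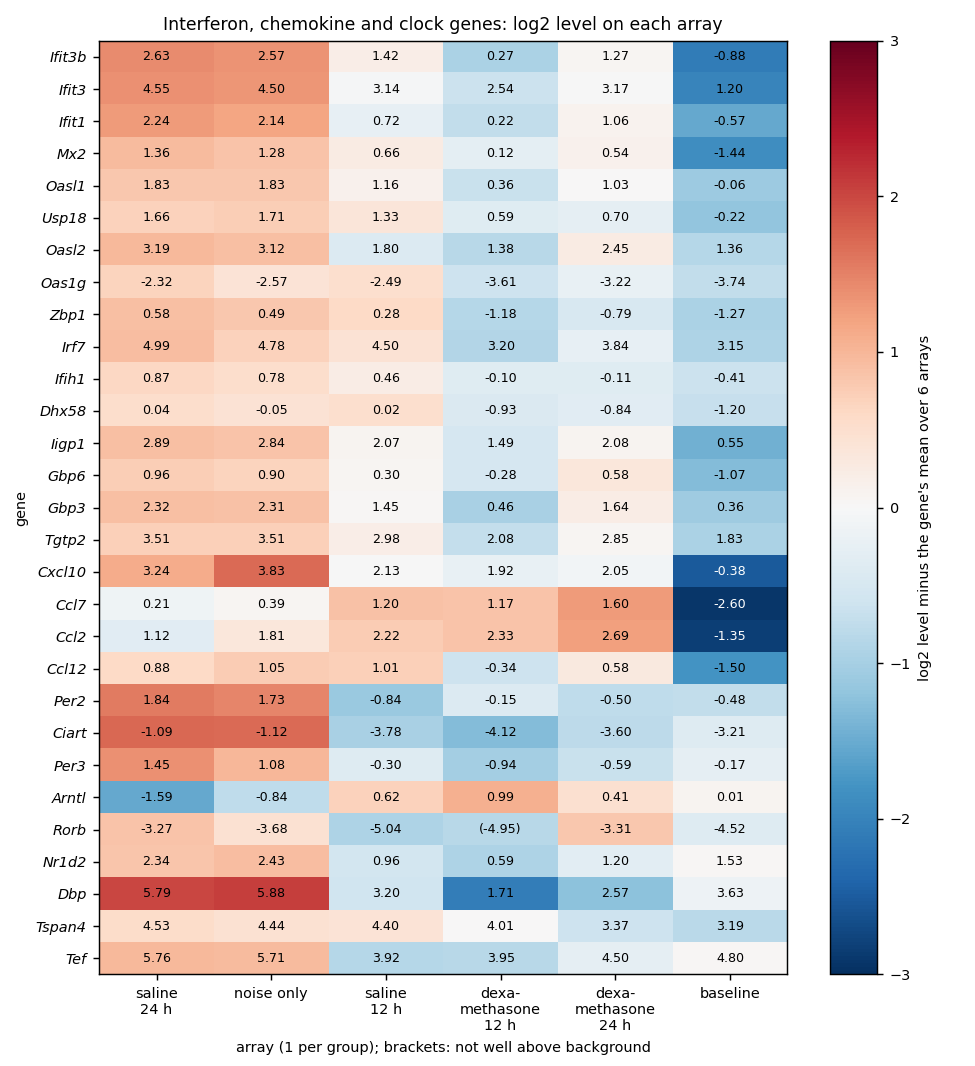
Log2 level of interferon, chemokine and clock genes (rows) on each of the 6 arrays (columns, 1 array per group), with the colour giving the level minus the gene's mean over the 6 arrays. Ifit3 is highest at saline 24 h (4.55) and in noise alone (4.50) and lowest at baseline (1.20), and Arntl is lowest at saline 24 h (−1.59), with 0.01 at baseline.

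Clock repressor genes were higher in the saline 24 h cochlea, with a median of 0.95 and 5 of 11 measured members at least 2-fold higher. The activator Arntl was lower, but most of the list of activators and REV-ERB and ROR genes was not. Per2 had a level of 1.84 at saline 24 h and −0.48 at baseline, or 4.98-fold (3.77 to 6.57), and its other probe differed by 0.94. Ciart, a repressor that binds ARNTL and CLOCK, had −1.09 at saline 24 h and −3.21 at baseline, or 4.32-fold (3.20 to 5.84), and its other probe differed by 1.04. Per3 had 1.45 at saline 24 h and −0.17 at baseline, or 3.07-fold (2.33 to 4.05), with its other probes at 1.54 to 1.74. Per1 had 3.96 at saline 24 h and 2.68 at baseline, or 2.42-fold (1.84 to 3.20), but its other measured probe differed by −1.14, so the probes of Per1 disagree. The kinases Csnk1d at −0.19 and Csnk1e at −0.15, which mark Per proteins for decay, lay near baseline.

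Arntl had a level of −1.59 at saline 24 h and 0.01 at baseline, 3.04-fold lower (2.29 to 4.04), with its other probes at −1.59 to −1.27. Its partner Clock differed by −0.42, and Nfil3, a repressor of D-box genes, by −0.56. The REV-ERB genes Nr1d1 and Nr1d2, which repress Arntl, differed by 0.52 and 0.81, and the ROR gene Rorb by 1.25. The list of activators and REV-ERB and ROR genes had a median of 0.24. In it 6 of 9 measured members were above baseline, and 5 were below it under spike-in scaling. The D-box factor Dbp had 5.79 at saline 24 h and 3.63 at baseline, or 4.45-fold (3.37 to 5.87), with its other probe at 2.13, and Tef had 5.76 at saline 24 h and 4.80 at baseline, or 1.94-fold (1.47 to 2.56). Output genes as a list had a median of 0.51 with 2 of 10 at least 2-fold higher. Saline at 24 h and noise alone were the highest arrays for Per1, Per2, Per3, Ciart, Nr1d2, Dbp and Tef and the lowest for Arntl. The repressor gene Cry1 followed another order, with −3.04 at saline 24 h and −3.99 at baseline but −2.61 in saline at 12 h and −2.09 in dexamethasone at 12 h. Dbp had 5.88 in noise alone, 3.20 in saline at 12 h, 1.71 in dexamethasone at 12 h and 2.57 in dexamethasone at 24 h. Arntl had −0.84 in noise alone, 0.62 in saline at 12 h, 0.99 in dexamethasone at 12 h and 0.41 in dexamethasone at 24 h. The sample details give no hour of day, and its part in these differences was not tested.

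Among glucocorticoid receptor targets, 18 of 21 measured members were above baseline and 12 were below it under spike-in scaling. The median was 0.18, and only Per1, whose probes disagree as given above, was at least 2-fold higher. Tsc22d3 (GILZ), a classical target, had 4.80 at saline 24 h and 4.27 at baseline, or 1.45-fold (1.1 to 1.91). Fkbp5, which dampens the receptor, had 1.90 at saline 24 h and 1.82 at baseline, a ratio of 1.05 whose interval of 0.799 to 1.39 includes 1. The receptor genes Nr3c1 and Nr3c2 differed by 0.20 and 0.40.

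In the inner ear, genes of the acellular gels and of the hair bundle were somewhat higher in the saline 24 h cochlea, and genes of the supporting cells, stria vascularis and spiral ligament lay near baseline. All 10 measured members of the list of tectorial membrane and acellular gel genes were above baseline (3 of them below it under spike-in scaling). The list had a median of 0.55, with 3 at least 2-fold higher. Oc90, the main protein of the otoconial matrix in the mouse, had −1.27 at saline 24 h and −3.54 at baseline, or 4.81-fold (3.53 to 6.55). Otog, which encodes otogelin of the gels over the sensory epithelia, had 1.69 at saline 24 h and 0.51 at baseline, or 2.26-fold (1.71 to 2.98), and its relative Otogl 2.08-fold (1.57 to 2.76). Ceacam16, a tectorial membrane protein, had 6.31 at saline 24 h and 5.51 at baseline, a difference of 0.80, but its other probe differed by only 0.28. The tectorins Tecta at 0.14 and Tectb at 0.28 had smaller differences. Oc90 had −2.09 in noise alone, −3.0 in saline at 12 h, −2.87 in dexamethasone at 12 h and −3.49 in dexamethasone at 24 h, so both baseline and dexamethasone at 24 h lay at its lower end.

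Hair bundle genes had a median of 0.38, or 0.13 under spike-in scaling, with 18 of 26 measured members above baseline and 3 at least 2-fold higher. The 8 of them at or above the median level of all genes had a median of −0.14, on the other side of baseline. Ush1c, which encodes harmonin at the upper tip-link site, had 2.38 at saline 24 h and 1.20 at baseline, or 2.27-fold (1.72 to 2.99), with its other probe at 1.33. Myo15, the myosin that delivers proteins to stereocilia tips, had 0.52 at saline 24 h and −0.50 at baseline, or 2.04-fold (1.54 to 2.69). Loxhd1 was 2.01-fold higher (1.5 to 2.68), but its other probes differed by only 0.09 and 0.37. Tmc1, the pore subunit of the transduction channel, differed by 0.84, and the scaffold gene Whrn by −0.47. Inner and outer hair cell genes had a median of 0.38 over 17 measured members, or 0.13 under spike-in scaling, with 1 at least 2-fold higher. That gene, Cabp2, a calcium sensor of hair cells, had 1.17 at saline 24 h and 0.15 at baseline, or 2.03-fold (1.54 to 2.68). Chrna10, a subunit of the efferent acetylcholine receptor, differed by 0.88, Ocm (oncomodulin) by 0.74 and Otof (otoferlin) by 0.38. Slc17a8, the glutamate transporter of inner hair cells, differed by −0.42.

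Stria vascularis genes of potassium secretion had a median of 0.23 with 0 of 16 at least 2-fold apart. The potassium channel genes Kcne1 and Kcnj10 differed by 0.03 and −0.28, and Slc26a4 (pendrin), an anion exchanger gene that the list also holds, by 0.54. Pigment genes of strial melanocytes had a median of 0.10, with Pmel at 0.99, and fibrocyte genes of the spiral ligament had one of 0.14, with Gjb2 (connexin 26) at 0.62 and Gja1, another connexin gene, at −0.55, whose other probes differed by 0.09 to 0.11. Supporting cell genes had a median of 0.02 over 17, between Slc1a3, a glutamate transporter, at 0.95 and Hes5, a Notch target, at −0.82. Outside the inner ear lists, Nox3, the inner ear NADPH oxidase, had −2.83 at saline 24 h and −4.69 at baseline, or 3.62-fold (2.32 to 5.63), in a region of low signal. Its level was lowest at baseline, with −3.05 in noise alone, −3.03 in saline at 12 h, −3.09 in dexamethasone at 12 h and −3.39 in dexamethasone at 24 h.

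**Figure D4:**
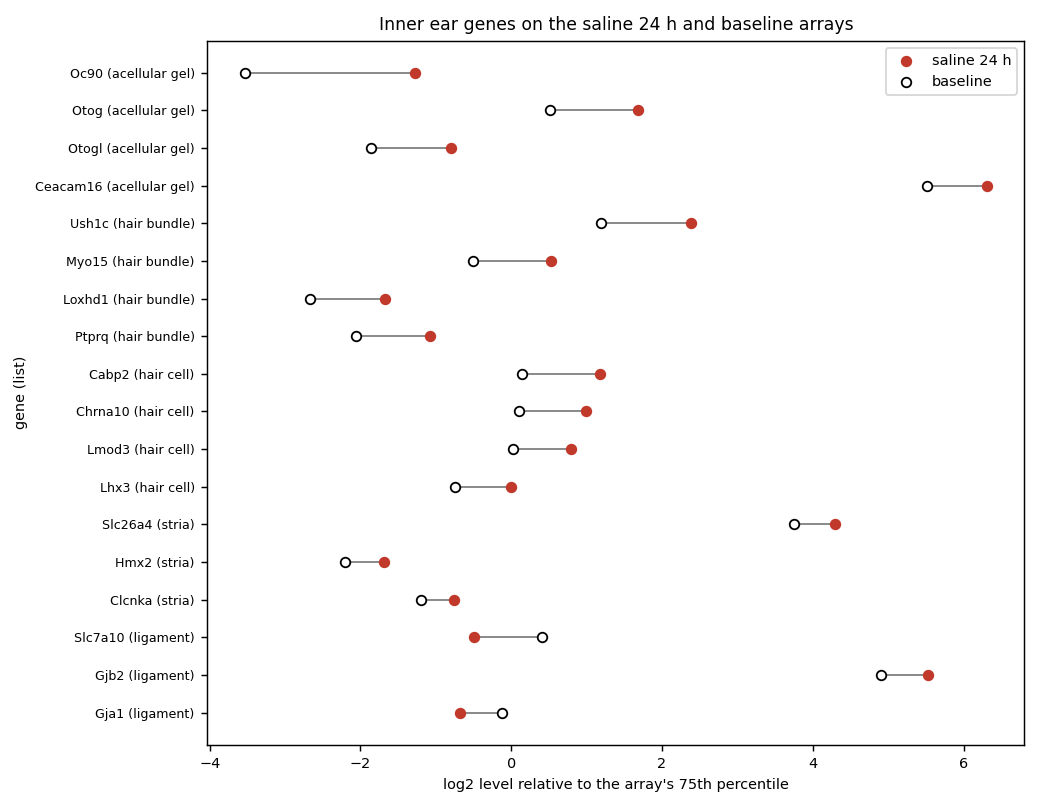
Log2 level of inner ear genes at saline 24 h (filled red circles) and baseline (open circles), for 3 or 4 members of each list that are among the 4 with the largest differences, with the level relative to the array's 75th percentile on the horizontal axis. Gel and hair cell genes lie to the right at saline 24 h, from Oc90 at −1.27 against −3.54, and Slc7a10 and Gja1 lie to the left.

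The lists of neuron genes differed in their medians. Spiral ganglion and filament genes had a median of −0.14 over 22 measured members, presynaptic genes −0.20 over 22, and AMPA and NMDA receptor genes −0.07 over 21, all near baseline. Nociceptor genes were lower, with a median of −1.37 and 9 of 12 measured members at least 2-fold lower, and so were catecholamine and sympathetic neuron genes, with a median of −1.66 and 6 of 10 at least 2-fold lower (median −0.58 over those at or above the median level of all genes). Nefl and Nefh, filament genes of spiral ganglion neurons, differed by −0.10 and 0.09, and Gata3, their transcription factor, by 0.38. The other probe of Nefl differed by −0.56. In the spiral ganglion and filament list 12 members were below baseline and 10 above, with 18 below under spike-in scaling. Tubb3 and Uchl1 stood at −0.88 and −0.53. Of the 22 presynaptic genes 17 were below baseline, and 19 under spike-in scaling. Prph, the filament peripherin, is among the 3 spiral ganglion markers used above. It had 1.33 at saline 24 h and 3.43 at baseline, 4.27-fold lower (3.23 to 5.63), with its other probe at −2.62. Gap43, the growth cone protein, had 0.40 at saline 24 h and 2.19 at baseline, 3.46-fold lower (2.62 to 4.57). Pou4f1 stood at 1.19, but its other probes differed by −0.01 each.

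Scn10a, the sodium channel Nav1.8 of pain fibres, had −0.26 at saline 24 h and 1.85 at baseline, 4.30-fold lower (3.26 to 5.68), with its other probe at −1.77. Trpv1, the capsaicin receptor, was well above background at baseline and not at saline 24 h. Its bound was 5.11-fold lower, and the lower limit of its spot-error interval was 3.11-fold. Calca, counted among the lower nociceptor genes, was 2.45-fold lower, but its other measured probe differed by 1.04, so the probes of Calca disagree. Of 16 neurotrophin genes and receptors 5 were at least 2-fold lower, all of them receptors, among them the GDNF family receptor genes Ret at 3.54-fold lower (2.67 to 4.69) and Gfra3 at 2.56-fold lower. Bdnf and Ntf3, the ligands of spiral ganglion neurons, both differed by −0.01, and their receptors Ntrk2 and Ntrk3 by −0.21 and 0.12.

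Of the noradrenaline pathway, Th, which makes its precursor, had 0.30 at saline 24 h and 3.27 at baseline, 7.83-fold lower (5.94 to 10.3), and Ddc, the next enzyme, had −0.62 at saline 24 h and 2.69 at baseline, 9.95-fold lower (7.53 to 13.1). Dbh, which completes noradrenaline, was well above background at baseline, at 3.58, but not at saline 24 h. Its bound, which leaves out spot error, was 303-fold lower, and the lower limit of its spot-error interval was 239-fold. Slc6a2, the noradrenaline transporter, was at least 63.4-fold lower and Phox2a, a fate factor of these neurons, at least 22-fold lower, and both were well above background at baseline and not at saline 24 h. Dbh had −2.93 in noise alone, −4.88 in saline at 12 h and −2.50 in dexamethasone at 12 h, but 3.74 in dexamethasone at 24 h, so baseline and dexamethasone at 24 h were the 2 high arrays. Th had 1.69 in noise alone, 0.44 in saline at 12 h, 0.85 in dexamethasone at 12 h and 3.46 in dexamethasone at 24 h, the same pair being highest. Atf3, induced in injured neurons and in other stressed cells, had 0.83 at saline 24 h and −1.27 at baseline, or 4.27-fold (3.23 to 5.65), while the nerve injury genes Gal at −1.33, Npy at −1.50 and Sprr1a at −1.50 were lower and Sox11 stood at 0.01.

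Some genes of tissues that lie beside the cochlea differed by more than any gene of the inner ear lists, where the largest difference was 2.27 for Oc90. Ttr, the thyroxine carrier made by choroid plexus, had 0.60 at saline 24 h and 5.51 at baseline, 30.2-fold lower (22.9 to 39.8), with its other probe at −4.86. Folr1, the folate receptor, was 5.30-fold lower and Prlr 7.81-fold lower, while Kcnj13 differed by −0.23, and the choroid plexus list had a median of −0.37 with 6 of 16 at least 2-fold lower. The 10 of its genes at or above the median level of all genes had a median of −0.11, nearer to baseline than the 0.25 at which a list is called. Ttr had 0.12 in noise alone, 0.26 in saline at 12 h, 0.47 in dexamethasone at 12 h and 5.49 in dexamethasone at 24 h, which again sets baseline and dexamethasone at 24 h apart. The pituitary hormone genes Gh, Prl and Pomc were 20.6-fold (13.7 to 31.0), 19.3-fold (14.6 to 25.5) and 5.65-fold lower, with a list median of −0.82 over 9 and of −1.97 over those at or above the median level of all genes. Prl had 1.16 in noise alone, 5.34 in saline at 12 h, 4.24 in dexamethasone at 12 h and 5.70 in dexamethasone at 24 h, so saline at 24 h, at −0.43, was the lowest array.

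Skin and gland genes were lower as well. Keratins had a median of −1.0 with 9 of 19 measured members at least 2-fold lower, led by Krt77 at −1.93 and the basal layer keratins Krt14 at −1.77 and Krt5 at −1.75, whereas Krt8 and Krt18, the pair of simple epithelia, stood at 0.47 and 0.93. Cornified envelope genes had a median of −1.68 with 10 of 13 at least 2-fold lower, and 6 neighbouring genes of the late envelope cluster, Lce1c to Lce1i on chr3:92484400-92581218 (mm9), were all at least 2-fold lower, which may include cross-binding between near-identical copies. Lipf, the gastric lipase gene, had −1.86 at saline 24 h and 2.84 at baseline, 25.9-fold lower (19.5 to 34.5). Dmbt1, a mucosal defence glycoprotein, had −1.72 at saline 24 h and 2.38 at baseline, 17.1-fold lower (12.9 to 22.8), and Bpifb1, an airway and gland secretory protein, had 0.38 at saline 24 h and 4.27 at baseline, 14.8-fold lower (11.2 to 19.5). Gland genes had a median of −0.59 with 4 of 17 at least 2-fold lower and 2 higher.

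Skeletal muscle genes were higher, with all 27 measured contractile genes above baseline (1 below it under spike-in scaling), a median of 0.92 and 11 at least 2-fold higher. Myh7, the slow myosin heavy chain, had 2.10 at saline 24 h and −0.75 at baseline, or 7.25-fold (5.49 to 9.57). Actn3, the actinin of fast fibres, had 2.55 at saline 24 h and 0.52 at baseline, or 4.07-fold (3.09 to 5.37), and Myh4, a fast myosin, differed by 1.38. The muscle atrophy genes lay near baseline at 0.10. Cerebellar genes had a median of 0.34, or 0.09 under spike-in scaling with 10 of 21 below baseline, and 5 of 21 measured members were higher by 2-fold or more, including the Purkinje cell gene Pcp2, with 2.29 at saline 24 h and 0.27 at baseline, or 4.07-fold (3.08 to 5.37), and the midbrain and cerebellar patterning gene En2, 3.63-fold higher. Pcp2 had 5.23 in noise alone, 5.03 in saline at 12 h, 4.91 in dexamethasone at 12 h and 0.73 in dexamethasone at 24 h. Astrocyte and oligodendrocyte genes were lower at −0.58, or −0.04 over those at or above the median level of all genes, with Opalin, Olig1 and Olig2 at −1.49, −1.41 and −1.22, and 5 of 16 above baseline. Adipocyte genes were lower at −0.33, with Ucp1, the uncoupler of brown fat, at −1.27, and ciliated epithelium genes at −0.36, or −0.13 over the 3 at or above the median level of all genes. The part of neighbouring tissue carried along with each cochlea in the nerve, gel and hair cell differences was not tested.

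**Figure D5:**
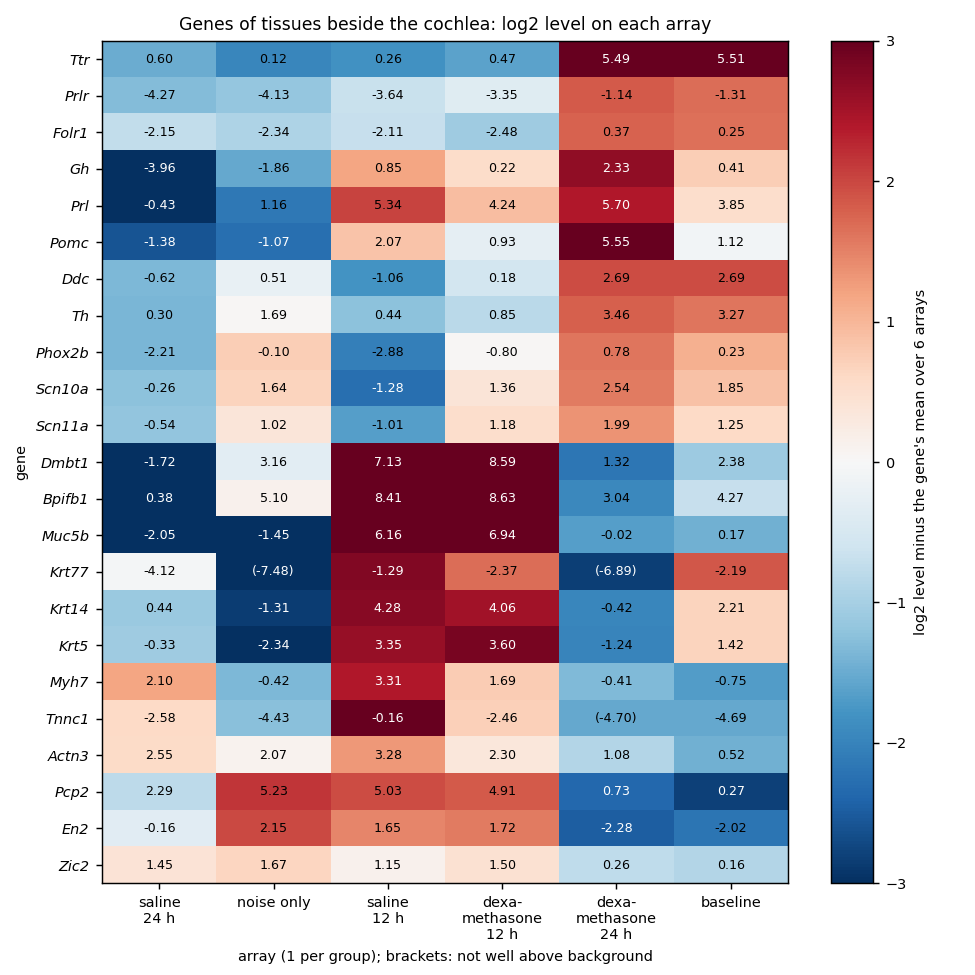
Log2 level of genes of tissues beside the cochlea and of extracochlear neurons (rows) on each of the 6 arrays (columns, 1 array per group), with brackets where a gene was not well above background and the colour giving the level minus the gene's mean over the 6 arrays. Ttr is high in dexamethasone at 24 h (5.49) and at baseline (5.51) and 0.60 at saline 24 h, while the gland gene Dmbt1 is highest on the 12 h arrays, with 7.13 after saline and 8.59 after dexamethasone. Both 12 h arrays lay on another slide than the rest.

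Blood-forming cells of the temporal bone showed a mixed picture. Neutrophil and granule genes were lower, with 21 of 22 below baseline and a median of −0.69, but only 2 at least 2-fold lower. Cxcr2, the chemokine receptor that brings neutrophils out of marrow, had −1.83 at saline 24 h and −0.49 at baseline, 2.54-fold lower, and the primary granule gene Mpo differed by −0.21. B cell genes at −0.46, eosinophil, mast cell and basophil genes at −0.48, platelet genes at −0.44, MHC class II genes at −0.28 and adhesion molecules at −0.30 (−0.23 with a gene's probes averaged) were also below baseline, each with no more than 1 member at least 2-fold lower. Il5ra, the interleukin 5 receptor of eosinophils, went against its list at 1.43. Erythroid genes at 0.01 over 19 and cell cycle genes at 0.00 over 27 lay near baseline with 0 members 2-fold apart. Macrophage genes lay near baseline as a list but not each by each. Trem2, a lipid receptor of phagocytes, had 2.58 at saline 24 h and 1.31 at baseline, or 2.40-fold (1.82 to 3.17), and Cd163, the receptor for haemoglobin bound to haptoglobin, had −1.60 at saline 24 h and −0.08 at baseline, 2.88-fold lower (2.17 to 3.83).

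Haem and iron genes had a median of 0.01, and 3 of 18 were at least 2-fold lower, namely Hmox1, Hp and Cd163. Hmox1, haem oxygenase 1, had −1.13 at saline 24 h and 2.61 at baseline, 13.4-fold lower (10 to 17.7). Hp (haptoglobin), which binds free haemoglobin, had 3.86 at saline 24 h and 5.11 at baseline, 2.39-fold lower (1.81 to 3.15). Hmox1 had −1.30 in noise alone, −0.30 in saline at 12 h, −0.41 in dexamethasone at 12 h and 1.03 in dexamethasone at 24 h, so baseline was its highest array. Hmox2, the constitutive enzyme, differed by 0.01, and the ferritin genes Fth1 and Ftl1 by 0.01 and 0.09.

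Most stress programmes lay near baseline. Cytosolic heat shock genes had a median of 0.01, endoplasmic reticulum chaperones 0.00, NRF2 and glutathione genes 0.08, and p53 targets 0.02, each over 18 to 20 measured members, and Hspa1l at 1.56 was the 1 heat shock gene at least 2-fold higher. Subunits of oxidative phosphorylation had a median of −0.03 over 45, all within 1.5-fold. The integrated stress response stood at 0.22, with 3 of 20 at least 2-fold higher. Of those, Gdf15, a secreted stress signal, had 0.12 at saline 24 h and −1.91 at baseline, or 4.07-fold (3.08 to 5.39), while Chac1, which degrades glutathione, differed by 1.34 and the hormone Fgf21 by 1.30. Their shared activator Atf4 differed by 0.09. Gdf15 had 0.39 in noise alone, 1.76 in saline at 12 h, 2.26 in dexamethasone at 12 h and 2.91 in dexamethasone at 24 h, so it was lowest at baseline. Of the BCL-2 family, Bax, which permeabilises mitochondria, had 0.81 at saline 24 h and 2.02 at baseline, 2.31-fold lower (1.75 to 3.05), with its other probe at −1.37, and Bbc3 (PUMA) differed by −0.69, while the 14 other measured members lay within 1.5-fold. Immediate early genes had a median of 0.13 with 0 of 27 at least 2-fold apart, led by Egr1 at 0.67 and with Arc at −0.90, and Fos differed by 0.23 and Junb by 0.44.

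Bone, vessel and matrix genes were close to baseline apart from single genes. Osteoblast genes had a median of −0.06 over 20, endothelial genes 0.01 over 18, collagens 0.04 over 27 and matrix metalloproteinases and their inhibitors 0.02 over 19. Tnfsf11 (RANKL), the osteoclast differentiation signal, had −2.26 at saline 24 h and −4.23 at baseline, or 3.91-fold (2.72 to 5.62), and its decoy receptor Tnfrsf11b differed by 0.70, while the osteoclast list stood at −0.04. Tnfsf11 had −3.94 in noise alone, −3.68 in saline at 12 h, −3.56 in dexamethasone at 12 h and −4.57 in dexamethasone at 24 h, so its saline 24 h level was the highest of the 6. Col15a1, a basement membrane collagen, had −3.57 at saline 24 h and −1.05 at baseline, 5.74-fold lower (4.05 to 8.14), and it was highest at baseline, with levels between −4.66 and −3.0 in the other arrays. Claudins and tight junction genes had a median of 0.20 over 24, aquaporins −0.05 over 12, and sodium pump subunits 0.10 over 12, where the neuronal modulator Fxyd7 at −1.24 and Fxyd2 at −1.42 were lower.

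Of the remaining genes named by size, Pip5kl1, a phosphoinositide kinase-like gene, was 3.83-fold higher (2.90 to 5.06). Fabp7, the fatty acid binding protein of glia, was 4.68-fold lower (3.55 to 6.18), Rab3b, a secretory vesicle GTPase, 4.49-fold lower (3.40 to 5.93) and the granin Scg2 3.93-fold lower (2.98 to 5.18). Lamtor2, a scaffold of lysosomal signalling, had 1.26 at saline 24 h and 3.31 at baseline, 4.16-fold lower (3.15 to 5.49), and baseline was again the highest array, with 1.00 in noise alone and 2.34 in dexamethasone at 24 h. Genes well above background on only 1 array of the pair numbered 382 at saline 24 h and 1972 at baseline. By their bounds, 335 of the first set were higher by 2-fold or more and 170 of the second were lower by as much. The lowest signal that was well above background lay at −4.66 at saline 24 h and −5.32 at baseline, so the bounds start from unequal floors and these counts are not to be set against each other. The highest bounds at saline 24 h were Rhox3g at 35.2-fold, Slfn5os at 35.1-fold, Olfr1265 at 32.4-fold and Tifab at 31.4-fold, and Rhox3g and Tifab were not well above background on any other array.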

How the data were processed

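Cochlear RNA was labelled with Cy3 by a low-input one-colour protocol after silica column extraction and hybridised to Agilent arrays, per the labels' protocols, and the intensity values were deposited as Agilent Feature Extraction 10.10.1.1 output, per the file headers. The authors' deposited series matrix holds log2 values that equal the log2 processed signal minus a constant per array, within 0.002, for 100% of probes with a single spot. Its column medians were −2.937 for saline 24 h, −2.989 for noise only, −2.86 for saline 12 h, −2.82 for dexamethasone 12 h, −2.908 for dexamethasone 24 h and −2.964 for baseline. The sources used here do not say how that constant was set. The processed signal had background and spatial trends removed by Feature Extraction, per the file headers.

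From these files, the log2 processed intensity was scaled by subtracting the 75th percentile of the array's non-control probes, spots of one probe were averaged without outlier spots, and a gene was represented by its probe of the highest mean level. A RefSeq accession gave the gene name of 32989 of 56605 probes, and 23616 kept the name in the file. A gene was measured if well above background on both arrays. Where only 1 array measured it, a bound was taken against the higher of the dim array's lowest well-above-background signal and the probe's own signal. The bound leaves out spot error, and it is the plain ratio where the probe's own signal is the higher. With 1 array a group, no test was run. The 95% interval after a fold comes from the spot signal error in the files. At least 2-fold apart was the size threshold, and a list was called higher or lower at a median at least 0.25 from 0.

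The comparison, its members and the gene lists were chosen with earlier results of these data known. Named genes were the 15 highest and 15 lowest among genes at or above the median level, the 5 largest bounds in each direction and up to 4 members per list by size of difference. A few of these genes are not reported here, and any other gene named was chosen after its values were seen. Promoter sequences came from a RefSeq table of build GRCm38.p6, and probe positions are those of the file on mm9. The alternatives were other scalings, backgrounds, filters, fold thresholds and probe rules. The scaling and the 2-fold count were tested on simulated arrays with known differences. The background filter, probe choice, bounds and intervals were not tested in this way. Python 3.11.15 with pandas 2.3.3, numpy 2.4.6 and matplotlib 3.10.9, and R 4.3.3 with limma 3.58.1 for the normexp and quantile alternatives, were used.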

Additional observations from a re-analysis of the deposited data

Results flagged for a closer look

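Some results at saline 24 h stood on the opposite side of baseline from the same result at saline 12 h. Each time point is 1 array, both comparisons share the baseline array, the 12 h array lay on another slide, and the difference between the time points was not tested.

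Among immune genes, the median of MHC class II genes was −0.28 at saline 24 h and 0.36 at saline 12 h, that of neutrophil and granule genes −0.69 at saline 24 h and 0.45 at saline 12 h, that of B cell genes −0.46 at saline 24 h and 0.44 at saline 12 h, and that of eosinophil, mast cell and basophil genes −0.48 at saline 24 h and 0.70 at saline 12 h. Among genes of neighbouring tissues, keratins had −1.0 at saline 24 h and 1.35 at saline 12 h, cornified envelope genes −1.68 at saline 24 h and 1.97 at saline 12 h, mucosal and salivary gland genes −0.59 at saline 24 h and 1.22 at saline 12 h, and pituitary hormone genes −0.82 at saline 24 h and 0.44 at saline 12 h. Of single genes, Bpifb1 differed from baseline by −3.89 at saline 24 h and 4.14 at saline 12 h, and Dmbt1 by −4.10 at saline 24 h and 4.75 at saline 12 h. The cornified envelope gene Hrnr had −2.16 at saline 24 h and 2.33 at saline 12 h. Lipf had −4.70 at saline 24 h and 5.08 at saline 12 h, the mucin gene Muc5b −2.22 at saline 24 h and 5.98 at saline 12 h, and the trefoil factor gene Tff2 −2.09 at saline 24 h and 5.43 at saline 12 h.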

How the results depend on the processing

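No paired analysis was possible because each group was 1 array. The counts of genes at least 2-fold higher and lower, 396 and 394, were 242 and 754 under spike-in scaling, 203 and 207 after normexp background correction with quantile normalization, 95 and 97 among genes at or above the median level, and 1556 and 1340 with no filter on dim probes. They were 1132 and 1218 at a 1.5-fold threshold and 153 and 112 at a 3-fold threshold. The cause of the change under spike-in scaling and under normexp was not tested, and the other changes follow from the genes kept or the threshold used. Among list medians, that of hair bundle genes turned to −0.14 over the 8 members at or above the median level and was 0.24 after normexp correction. With the same restriction the median was −0.58 for catecholamine neuron genes, 0.19 for inflammatory chemokines, −0.041 for astrocyte and oligodendrocyte genes and −1.97 for pituitary hormone genes. The catecholamine median was −2.14 with no filter on dim probes, and the cornified envelope median was −1.17 after normexp correction. Under spike-in scaling, 3 of the 12 lists called higher had medians nearer to baseline than 0.25, at 0.13 for hair bundle genes, 0.13 for hair cell genes and 0.09 for cerebellar genes, while those of the sensor, OAS, gel and inflammatory chemokine lists were 0.26, 0.36, 0.30 and 0.42. No gene chosen by the naming rule and at least 2-fold apart turned its direction under the alternatives run. Among the named genes, differences counted as moved in size numbered 33 after normexp correction and 14 with a gene's probes averaged. Genes just above baseline, such as Samhd1, Bst2, Oas3, Tecta and Kcne1, lay below it under spike-in scaling. Single probes agreed less well. Of 130 genes at least 2-fold apart that had another measured probe, 108 had all their other measured probes in the same direction. With 1 array a group, dim genes are limited most, since the share at least 2-fold apart was 6.51% among the 5742 dimmest genes and 1.25% among the 5741 brightest.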
